A study of Homo sapiens with 4 samples.

Results

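The genes described here are 9 proteins that receive or damp the autonomic signals of the heart, namely the adrenergic receptors ADRA1A, ADRA1B, ADRA1D, ADRA2A, ADRB1 and ADRB3, the muscarinic receptor CHRM2, and the receptor kinases GRK5 and ADRBK1 (now GRK2). They were chosen by name, and all 9 were found among the 23615 gene symbols of the deposited table. Poly-A RNA was sequenced from unsorted day 14 cultures of RUES2 cells, an established human embryonic stem cell line, in 2 groups of 2 biological replicates. In both groups mesoderm was induced with activin A at 100 ng/ml and BMP4 at 5 ng/ml, together with CHIR-99021, a compound that activates Wnt/β-catenin signaling. CPC cardiomyocytes came through cardiac progenitor cells. For cardiac differentiation the methods give 1 µM XAV, a tankyrase inhibitor that blocks Wnt/β-catenin signaling, on day 3 in a subset of experiments. Whether the CPC cultures sequenced here received it is not given in the sources used here. ECsXAV cardiomyocytes came from endothelial cells made in a medium with VEGF, bFGF and BMP4 from day 2, which were then directed to the cardiac fate with 2 µM XAV from day 5. Each group is a mixed culture of 1 line, and since the prefix of the sample names changes with the group, separate experiments and separate cell origins cannot be told apart.

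Noradrenaline and adrenaline act on the heart through G protein-coupled receptors. Beta receptors couple to Gs and raise cAMP, which activates protein kinase A and increases the rate and force of beating. Alpha-1 receptors couple to Gq, phospholipase C and protein kinase C, and alpha-2 receptors couple to Gi and lower cAMP. Acetylcholine from the vagus acts on the M2 receptor, encoded by CHRM2, which also couples to Gi and slows the heart through potassium channels opened by G protein βγ subunits. G protein-coupled receptor kinases phosphorylate the active receptors, arrestins then bind, and signaling falls.

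Values are FPKM, the fragments of a gene scaled to the length of its exons and to the mapped fragments of the library, so levels of different genes can be compared per length. Libraries are given in the order ECsXAV replicate 1, ECsXAV replicate 2, CPC replicate 1 and CPC replicate 2. By low-count steps in the values, the depth of the other libraries was 50.1%, 86.9% and 79.8% of that of ECsXAV replicate 1, and 12070 to 12240 genes reached 1 FPKM. The cardiomyocyte markers summed to 15595 and 14921 FPKM in ECsXAV and to 13865 and 14688 FPKM in CPC, with no defining marker at 0, a sum to which MYL7 gave the largest part. Of the 8 cardiomyocyte markers, MYH6, the atrial myosin heavy chain, was higher in CPC (log2 fold change 1.21, limma adjusted p = 0.0358) and NPPA, atrial natriuretic peptide, was lower (log2 fold change -3.30, limma adjusted p = 0.00605).

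By level, the 9 genes fell into 3 tiers. CHRM2, GRK5 and ADRBK1 had mean levels of 13.4, 13.4 and 11.6 FPKM over the 4 libraries, and the ranges of neighbours in this order overlapped. ADRA1B followed at 2.38 FPKM, below every library of the first 3 and above every library of the rest. The other 5 receptors were hardly read, at means of 0.163 FPKM for ADRB3, 0.115 for ADRB1, 0.0461 for ADRA1D, 0.0252 for ADRA1A and 0.00922 for ADRA2A, and each overlapped its neighbour in the order.

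**Figure D1:**
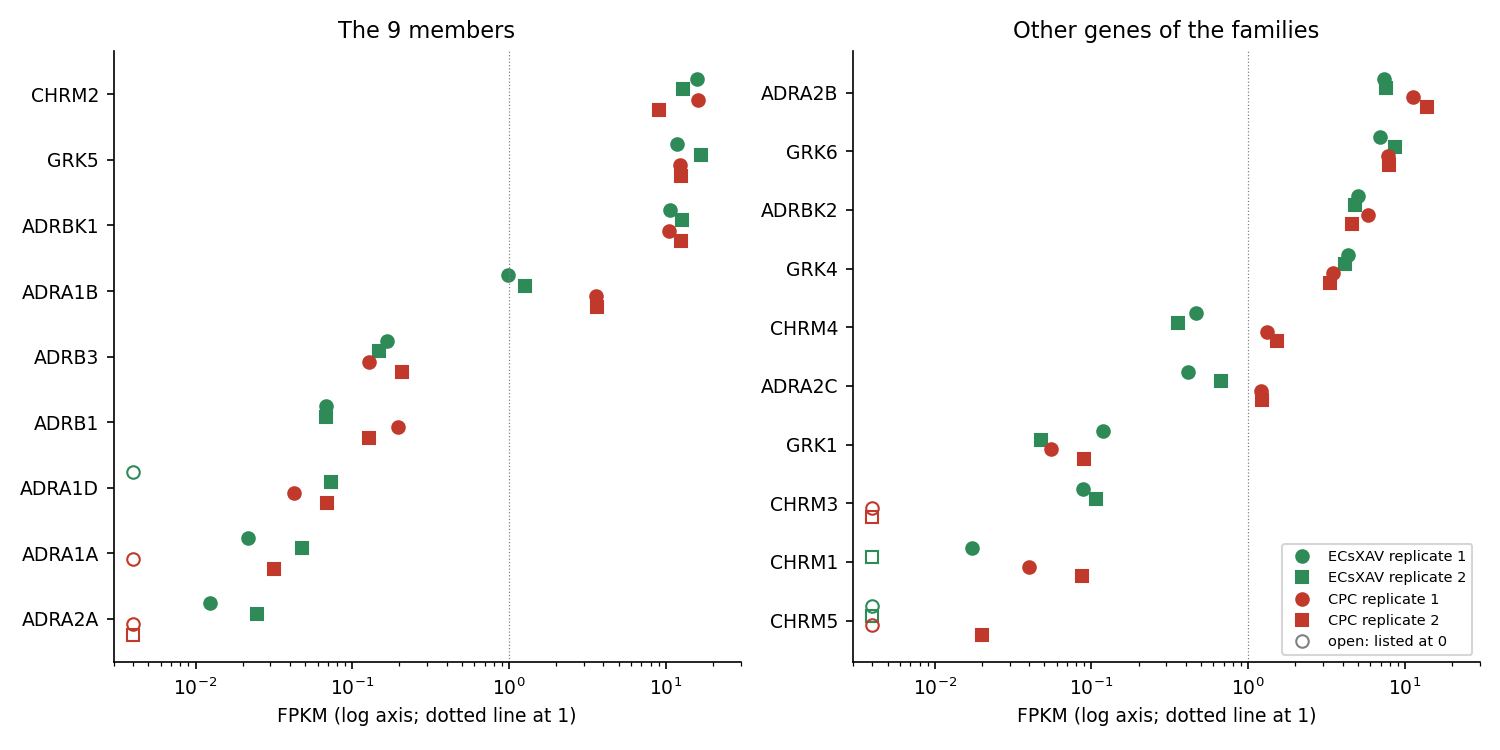
FPKM on a log axis for the 9 genes (left) and for other genes of the 3 families (right), with 1 point per library, ECsXAV in green and CPC in red, circles for replicate 1 and squares for replicate 2, and open symbols for values listed at 0. CHRM2, GRK5 and ADRBK1 lie near 10 FPKM with mixed colours, whereas the red points of ADRA1B, at 3.60 and 3.64 FPKM, lie apart from the green points, at 0.991 and 1.27 FPKM. GRK7, listed at 0 in all libraries, is not drawn.

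Between the groups, ADRA1B was the member that passed the criterion, an adjusted p under 0.05 with a change over 2-fold in limma on log2(FPKM + 1) with Benjamini-Hochberg adjustment. That fit tested the 12398 genes with a mean of at least 1 FPKM, of which 2.15% passed in either direction and 0.71% were higher in CPC. Of the 9 genes, 4 reached this level and 1 of these passed, and the median log2 fold change of the 4 was -0.10, against -0.0045 over all genes tested. A fit on log2(FPKM + 0.1) took in the 15662 genes with a mean of at least 0.1 FPKM, of which 2.41% passed in either direction and 0.747% were higher in CPC, and there 1 of 6 members passed, again ADRA1B. ADRA1D, ADRA1A and ADRA2A were below both limits and are given as values with no test.

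ADRA1B encodes the alpha-1B receptor, which couples to Gq. Its level was 0.991 and 1.27 FPKM in ECsXAV and 3.60 and 3.64 FPKM in CPC. Both CPC libraries were above both ECsXAV libraries, with means of 1.13 ± 0.20 and 3.62 ± 0.03 FPKM (SD, n = 2 each), a ratio of 3.20. The log2 fold change was 1.12 on log2(FPKM + 1) (standard error 0.14, 95% interval 0.75 to 1.49, limma adjusted p = 0.0362) and 1.60 on log2(FPKM + 0.1) (limma adjusted p = 0.0366), where the smaller added value compresses it less. With a replicate block its limma adjusted p was 0.060, without the low-level filter it was 0.0788, and with any 1 library left out it was 0.109 to 0.170 at log2 fold changes of 1.02 to 1.21. When microRNA and small nucleolar RNA genes were left out of the limma fit, its adjusted p was 0.00351, and 0.00203 with the block as well. For 1 gene alone, 2 libraries against 2 reach at best a two-sided p of 0.333 in an exact permutation test, so these p-values draw on the variance of other genes. In mixed cultures fewer cells of a type and less RNA per cell cannot be told apart.

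Besides MYH6 and NPPA, several markers of other cell types differed along with ADRA1B. Of the fibroblast markers, 3 of the 4 tested were lower in CPC, and the 7 summed to 109 and 145 FPKM in ECsXAV and to 56.5 and 47.6 FPKM in CPC. The 7 smooth muscle markers summed to 356 and 323 FPKM in ECsXAV and to 209 and 225 FPKM in CPC. Of 6 tested, 1 passed as lower, TAGLN, at 116 and 108 FPKM in ECsXAV and 15.8 and 22.6 FPKM in CPC. CNN1 was also lower in both CPC libraries without passing (log2 fold change -0.84). LMOD1 (log2 fold change 0.64, without passing) and the untested, low MYH11 were higher in both CPC libraries. ACTA2, SMTN and MYOCD overlapped between the groups, so the lower sum does not describe all these markers. Skeletal muscle markers summed to 41.6 and 60.9 FPKM in ECsXAV and 132 and 132 FPKM in CPC, a sum made almost wholly of ACTN3, the 1 of 2 tested that was higher. The other, TNNT3, had 3.76 and 3.89 FPKM in ECsXAV and 0.988 and 1.92 FPKM in CPC without passing, and the defining markers MYF5 and PAX7 were at 0 in all libraries. The 8 hepatocyte and endoderm markers summed to 41.8 and 36.3 FPKM against 19.3 and 21.2 FPKM, with 2 of 4 tested passing as lower. EPCAM (log2 fold change -0.74) and APOA1 (-0.18) were lower without passing. The neuron and neural crest markers summed to 4.80 and 4.68 FPKM against 1.43 and 1.27 FPKM, with 1 tested, which passed as lower. The 8 endothelial markers summed to 13.2 and 12.1 FPKM against 14.5 and 11.1 FPKM, and the 7 blood markers to 4.17 and 6.12 FPKM against 1.54 and 1.10 FPKM with PTPRC at 0, and none of either list passed. KDR gave most of the endothelial sum, while CDH5, at 1.19 and 1.49 FPKM in ECsXAV and 0.875 and 0.649 FPKM in CPC, TEK and ESAM were lower in both CPC libraries. EMCN went the other way, at 0.731 and 0.964 FPKM in ECsXAV and 1.79 and 0.975 FPKM in CPC. The part of these differences in the level of ADRA1B was not tested.

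In GRCh37, the build of the files (hg19), ADRA1B lies on chromosome 5 from 159292087 to 159400019 on the plus strand. Of its exonic bases, 1373 lie within the span of the noncoding gene LINC01847 on the opposite strand. Whether strand was used for the FPKM is not given in the sources used here. Reads from any shared exons could therefore not be told apart. The promoters of ADRA1B and of GRK5, a member whose groups overlapped, are shown because both lie in a very GC-rich stretch, each spanning 250 bases before to 50 bases after the RefSeq start in GRCh38.p14. Capitals mark the GC box GGGCGG, searched on both strands, so that CCGCCC is the same box on the minus strand.
ADRA1B, chr5:159916232-159916531, plus strand: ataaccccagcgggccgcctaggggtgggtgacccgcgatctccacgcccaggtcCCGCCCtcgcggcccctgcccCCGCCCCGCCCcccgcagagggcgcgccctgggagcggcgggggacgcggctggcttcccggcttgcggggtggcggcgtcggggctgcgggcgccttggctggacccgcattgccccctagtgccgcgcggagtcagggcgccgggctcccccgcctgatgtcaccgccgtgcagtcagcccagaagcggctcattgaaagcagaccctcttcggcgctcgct
GRK5, chr10:119207321-119207620, plus strand: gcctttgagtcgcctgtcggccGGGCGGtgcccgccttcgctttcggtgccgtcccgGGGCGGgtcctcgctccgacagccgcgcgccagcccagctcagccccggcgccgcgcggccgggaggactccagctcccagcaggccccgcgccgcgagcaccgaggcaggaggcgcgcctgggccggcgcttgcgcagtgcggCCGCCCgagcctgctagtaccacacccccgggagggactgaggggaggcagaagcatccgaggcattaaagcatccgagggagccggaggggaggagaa
Each window holds 3 GC boxes, the last 2 of ADRA1B overlapping by 1 base, and 45.0% of the 35116 RefSeq promoters of this length hold at least 1. The ADRA1B window is 76.3% G or C with 37 CpG and the GRK5 window 75.0% with 38 CpG, against medians of 58.7% and 14 over all these promoters. As the windows were chosen for it, this richness does not describe the members as a set. Among other members, ADRBK1 was at 82.3%, ADRB1 at 71.3%, ADRA2A at 69.3% and the CHRM2 windows at 58.7%, 52.3% and 48.7%. Neither window holds the TATA box TATAAA on either strand, which 11.5% of promoters hold. The CCAAT box CCAAT, held by 34.6%, was likewise not in these letters. The same was true of the GATA motif AGATAA, held by 10.3%. The E box CANNTG, held by 68.7%, was not there either.

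The genes whose pattern over the 4 libraries was nearest to that of ADRA1B, by the Euclidean distance of centred log2(FPKM + 1) values, were FOXH1 (distance 0.0633), GLUL (0.0669), CPXM1 (0.0784), PBX3 (0.109) and TBKBP1 (0.119). FOXH1, a partner of SMAD proteins in activin signaling, had 6.60 and 8.03 FPKM in ECsXAV and 16.5 and 17.5 FPKM in CPC. GLUL, glutamine synthetase, had 26.8 and 32.0 FPKM in ECsXAV and 61.6 and 63.4 FPKM in CPC. In all 5 genes both CPC libraries were higher and close together, as the choice by likeness requires.

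Among the alpha-1 receptors, ADRA1B made up nearly all of the summed FPKM in every library. Its share was 97.9% and 91.3% in ECsXAV and 98.8% and 97.3% in CPC, ranges that overlapped (exact permutation test, two-sided p = 0.667). ADRA1A, the alpha-1A receptor, was listed at 0.0217 and 0.0478 FPKM in ECsXAV and at 0 and 0.0315 FPKM in CPC. ADRA1D, the alpha-1D receptor, was listed at 0 and 0.0732 FPKM in ECsXAV and at 0.0422 and 0.0689 FPKM in CPC. In whole reads, the smallest numbers that fit the steps of the ADRA1D values were 0 and 2 in ECsXAV and 2 and 3 in CPC, so 71.4% of its 7 reads were in CPC (exact Clopper-Pearson 95% interval 29.0% to 96.3%) beside 52.6% of the depth. No difference of ADRA1D was detectable at this depth, and such intervals cover counting error only. ADRA1A, a gene of 4 annotated transcripts, was not matched to whole reads, and its difference was not tested.

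Of the alpha-2 receptors, the member ADRA2A was almost unread. It was listed at 0.0123 and 0.0246 FPKM in ECsXAV, the value of 1 read in each, and at 0 in both CPC libraries, where a count of 0 allows up to 3 reads per library. The 2 reads do not permit a fold change. Its relatives were read more, with ADRA2B at 7.40 and 7.62 FPKM in ECsXAV and 11.3 and 13.8 FPKM in CPC, a log2 fold change of 0.66 (95% interval 0.31 to 1.01, limma adjusted p = 0.0854). ADRA2C had 0.412 and 0.667 FPKM in ECsXAV and 1.21 and 1.23 FPKM in CPC, a log2 fold change of 1.07 on log2(FPKM + 0.1) (limma adjusted p = 0.146). Neither passed the criterion, although the groups did not overlap for either gene. Per length, ADRA2B was the most abundant of the alpha receptor RNAs in every library.

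The members ADRB1 and ADRB3 were low in both groups. ADRB1 encodes the main beta receptor of the adult heart muscle and is a gene with a single exon, on chromosome 10 from 115803625 to 115806663 (GRCh37). Its level was 0.0679 and 0.0678 FPKM in ECsXAV and 0.196 and 0.128 FPKM in CPC, so both CPC libraries were above both ECsXAV libraries, at a ratio of means of 2.38. The difference did not pass the test, with a log2 fold change of 0.63 on log2(FPKM + 0.1) (standard error 0.37, 95% interval -0.33 to 1.59, limma adjusted p = 0.449). How large the change appears depends on the added value, since the log2 difference was 0.12 with 1 added, 1.11 with 0.01 and 1.22 with none. The values correspond to as few as 2 and 1 reads in ECsXAV and 5 and 3 reads in CPC, so 72.7% of 11 reads were in CPC (exact Clopper-Pearson 95% interval 39.0% to 94.0%), an interval that includes the 52.6% of the depth.

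ADRB3, the beta-3 receptor, known for lipolysis in fat cells, was at 0.166 and 0.148 FPKM in ECsXAV and 0.128 and 0.209 FPKM in CPC. Of its exons, 1939 bases lie within the span of another protein-coding gene on the same strand, and reads from any shared exons could not be told apart. These ranges overlapped, and the log2 fold change on log2(FPKM + 0.1) was 0.05 (95% interval -0.88 to 0.97, limma adjusted p = 0.962). At the fewest whole reads, 9 and 4 in ECsXAV and 6 and 9 in CPC, 53.6% of 28 reads were in CPC (exact Clopper-Pearson 95% interval 33.9% to 72.5%).

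**Figure D2:**
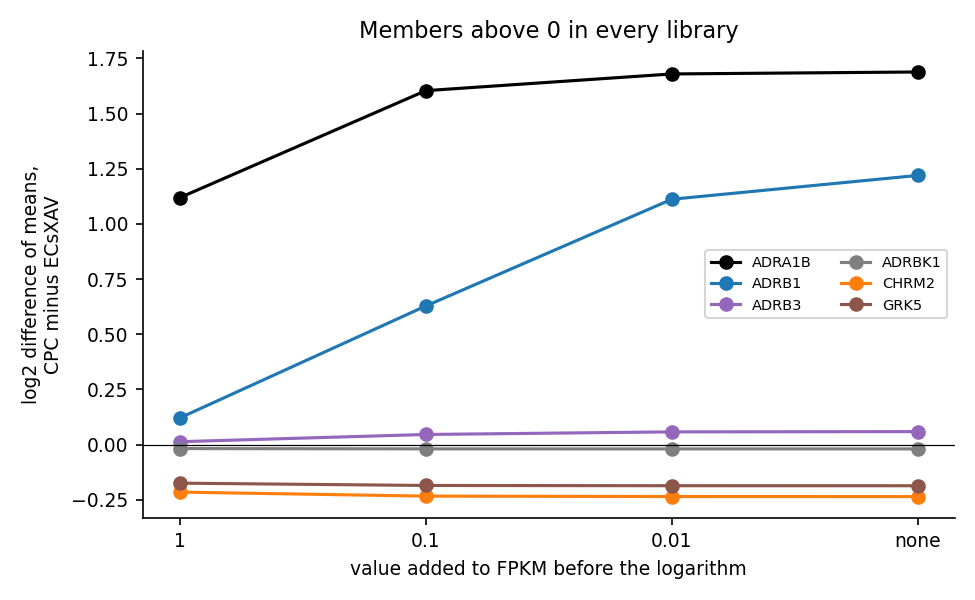
Log2 difference of group means, CPC minus ECsXAV, of the 6 members above 0 in every library, against the value added to FPKM before the logarithm. ADRA1B goes from 1.12 with 1 added to 1.69 with none and ADRB1 from 0.12 to 1.22, while CHRM2, GRK5, ADRBK1 and ADRB3 stay between -0.24 and 0.06.

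CHRM2, the M2 receptor through which the vagus slows the heart, had the highest mean of the member receptors over the 4 libraries. It stood at 15.8 and 12.8 FPKM in ECsXAV and 16.0 and 9.11 FPKM in CPC. The CPC libraries held both the highest and the lowest value, and the log2 fold change was -0.22 (standard error 0.27, 95% interval -0.93 to 0.50, limma adjusted p = 0.742), which leaves room for a change of nearly 2-fold downwards. Without CPC replicate 2 it was 0.16, so its sign rested on that library. The gene spans 136553399 to 136705002 of chromosome 7 (GRCh37, plus strand), and a noncoding gene on the opposite strand spans all 5971 of its exonic bases, so the same limit on strand holds.

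The FPKM of CHRM2 were divided over 8 annotated transcripts, and this division also differed between replicates of 1 group. Transcript 4 had 5.43 and 0.0112 FPKM in ECsXAV and 6.05 and 0.629 FPKM in CPC, high in replicate 1 of each group. Transcript 8 had 0.000585 and 3.06 FPKM in ECsXAV and 2.62 FPKM in CPC replicate 2, and was practically at 0 in CPC replicate 1. Transcript 7 was the exception, at 3.25 and 4.31 FPKM in ECsXAV and 0.114 and 0.10 FPKM in CPC, while transcript 3 was read in all libraries at 1.39 to 4.09 FPKM. No test was made on transcripts.

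**Figure D3:**
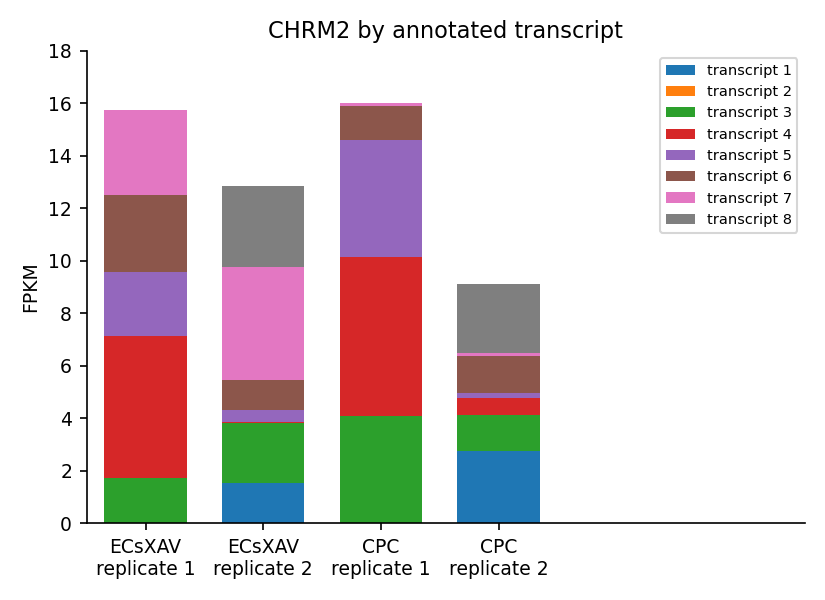
FPKM of CHRM2 stacked by its 8 annotated transcripts, 1 bar per library. Bar heights are 15.8, 12.8, 16.0 and 9.11 FPKM, transcript 4 fills a large part of both replicate 1 bars at 5.43 and 6.05 FPKM, and transcript 7 is visible in ECsXAV at 3.25 and 4.31 FPKM.

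Of the summed muscarinic receptors, CHRM2 made up 96.5% in each ECsXAV library and 92.2% and 84.9% in the CPC libraries. These shares did not overlap and differed by -7.99 percentage points, with the smallest p this design allows (exact permutation test, two-sided p = 0.333), and by -3.76 points when FPKM were weighted by transcript length. The difference was -4.32 points without CPC replicate 2 and -11.7 points without CPC replicate 1. CHRM4, the M4 receptor, which also couples to Gi, had 0.464 and 0.356 FPKM in ECsXAV and 1.31 and 1.52 FPKM in CPC, with a log2 fold change of 1.58 on log2(FPKM + 0.1) (95% interval 0.92 to 2.24, limma adjusted p = 0.0544). Like ADRA1B, it had a smaller limma adjusted p without short RNA genes, 0.0173, and passed there, in a setting added after its values were seen. Of its exonic bases, 49 lie within the span of MDK on the opposite strand, a gene at 719 to 976 FPKM. The Gq-coupled CHRM3 had the value of 5 and 3 reads in ECsXAV and was at 0 in both CPC libraries, so 0% of its 8 reads were in CPC (exact Clopper-Pearson 95% interval 0% to 36.9%), an interval below the 52.6% of the depth, chosen here because it was the clearest among 8 low genes counted in reads. CHRM1 had the value of 1 and 0 reads in ECsXAV and 2 and 4 reads in CPC, and CHRM5 that of 1 read, in CPC replicate 2.

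GRK5 and ADRBK1 are the receptor kinases best known in heart muscle. GRK5, which binds the membrane directly, had 11.9 and 16.8 FPKM in ECsXAV and 12.4 and 12.4 FPKM in CPC. ADRBK1, or GRK2, which is recruited by free G protein βγ subunits, had 10.7 and 12.7 FPKM in ECsXAV and 10.5 and 12.5 FPKM in CPC. For both kinases the CPC range overlapped that of ECsXAV. The log2 fold change was -0.17 for GRK5 (95% interval -0.64 to 0.29, limma adjusted p = 0.676) and -0.02 for ADRBK1 (95% interval -0.39 to 0.36, limma adjusted p = 0.964), intervals that hold no change of 2-fold in either direction. Without ECsXAV replicate 2, the highest library, GRK5 stood at 0.06. In GRCh37 both lie on plus strands, GRK5 on chromosome 10 from 120967083 to 121219257 and ADRBK1 on chromosome 11 from 67033944 to 67054027.

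The kinase family as a whole kept a like composition. GRK5 took 30.5% and 35.7% of the summed kinase FPKM in ECsXAV and 30.9% and 30.5% in CPC, and ADRBK1 took 27.5% and 26.9% in ECsXAV and 26.2% and 30.7% in CPC, with overlapping ranges for both. Of 7 kinase genes 5 were tested and 0 passed the criterion in limma. ADRBK2 (GRK3) had a log2 fold change of 0.07 (adjusted p = 0.849), GRK6 one of 0.02 (adjusted p = 0.964) and GRK4 one of -0.25 (adjusted p = 0.353), all from limma. GRK4 had 4.32 and 4.16 FPKM in ECsXAV and 3.49 and 3.31 FPKM in CPC, without overlap. The retinal kinases were nearly unread, GRK1 at the value of 1 to 5 reads per library and GRK7 listed at 0 in all 4.

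**Figure D4:**
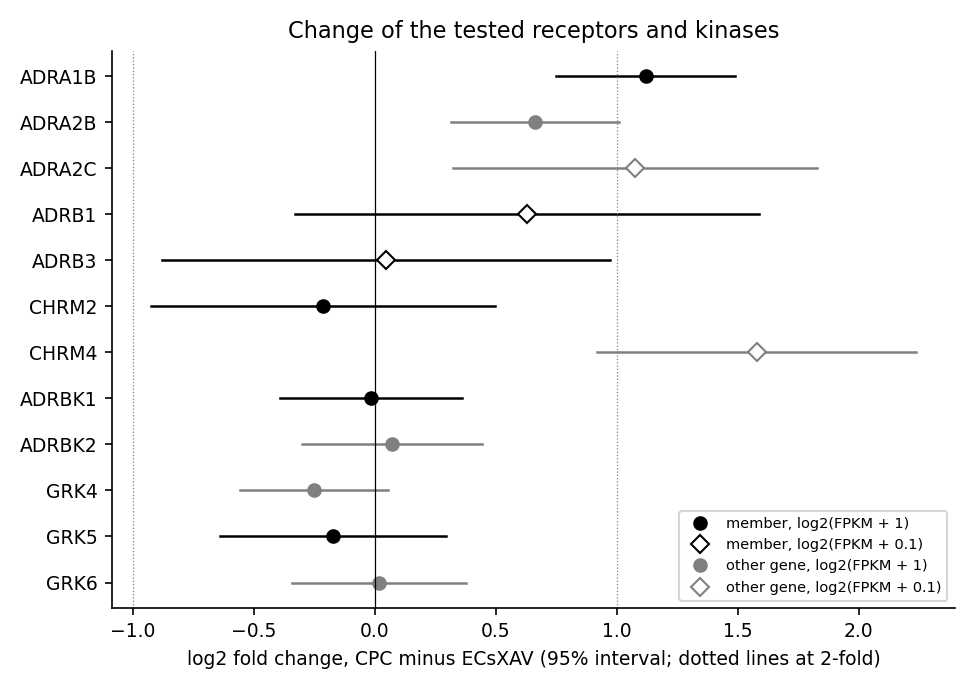
Log2 fold change, CPC minus ECsXAV, with its 95% interval for tested receptors and kinases, members in black and other family genes in grey, filled for log2(FPKM + 1) and open for log2(FPKM + 0.1). ADRA1B at 1.12 lies to the right of 0 with ADRA2B, ADRA2C and CHRM4, and the kinases lie between -0.25 and 0.07 with intervals that include 0.

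The 5 muscarinic receptor genes summed to 16.3 and 13.3 FPKM in ECsXAV and to 17.4 and 10.7 FPKM in CPC, and the 7 kinase genes to 38.9 and 47.1 FPKM in ECsXAV and to 40.0 and 40.9 FPKM in CPC. Both sums overlapped between the groups.

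Outside the receptor and kinase families, 93 of 140 further pathway genes were tested, with 46 higher and 47 lower in CPC. Their median log2 fold change was -0.0059. These lists hold signaling genes downstream of the receptors and also genes that make, take up and remove the ligands. Of these 93, 1 passed the criterion as higher and 4 as lower. The 1 higher, MAOA, and MAOB among the lower are genes of ligand breakdown. Over all genes tested, 2.15% passed in either direction and 0.71% were higher in CPC. Arrestins, which bind the phosphorylated receptors, were split, with ARRB1 at a log2 fold change of -0.51 (limma adjusted p = 0.160) and ARRB2 at 0.47 (limma adjusted p = 0.238). None of the 10 G protein alpha subunits, the 11 beta and gamma subunits or the 9 RGS proteins tested passed. GNAS, which encodes Gs alpha, was at 757 and 742 FPKM in ECsXAV and 726 and 894 FPKM in CPC, and GNAI2, a Gi alpha subunit, at 52.0 and 58.3 FPKM in ECsXAV and 56.7 and 63.2 FPKM in CPC. RGS3, which speeds the shutdown of G proteins, had 34.1 and 36.1 FPKM in ECsXAV and 18 and 22.9 FPKM in CPC, a log2 fold change of -0.76 that did not pass (limma adjusted p = 0.079).

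The clearest difference in the cAMP branch was in ADCY6, an adenylyl cyclase of heart muscle that makes cAMP and is inhibited by Gi. It had 53.3 and 55.5 FPKM in ECsXAV and 19.5 and 21.6 FPKM in CPC, without overlap, and a log2 fold change of -1.37 (standard error 0.11, limma adjusted p = 0.0151). Without the low-level filter its limma adjusted p was 0.0570, and with any 1 library left out its log2 fold change was -1.44 to -1.29. ADCY5, the other cyclase typical of the heart, had 5.0 and 8.46 FPKM in ECsXAV and 8.58 and 8.06 FPKM in CPC, a log2 fold change of 0.31 (limma adjusted p = 0.562). PDE10A, which breaks down cAMP and cGMP, was lower in CPC, at 2.54 and 1.87 FPKM in ECsXAV and 0.391 and 0.383 FPKM in CPC (log2 fold change -1.20, limma adjusted p = 0.0451). This call was lost with the replicate block (limma adjusted p = 0.0743) and without the low-level filter (0.0769). It was also lost with 0.1 added for the same genes (0.0541) and with quantile normalization (0.0584). The catalytic subunit of protein kinase A, PRKACA, had 78.4 and 84.1 FPKM in ECsXAV and 85.0 and 105 FPKM in CPC, and 0 of 17 genes of protein kinase A, EPAC and their anchors passed in limma.

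Among 14 protein kinase A targets of the myocyte, 10 were lower in CPC and 1 passed, with a median log2 fold change of -0.20. Over all genes tested, 49.2% were higher in CPC. MYBPC3, the cardiac myosin-binding protein C, had 401 and 381 FPKM in ECsXAV and 198 and 181 FPKM in CPC (log2 fold change -1.04, limma adjusted p = 0.0327). With quantile normalization it did not pass (-0.91, limma adjusted p = 0.0621), nor did it without the low-level filter (limma adjusted p = 0.0788). PLN, phospholamban, the brake on the calcium pump, had 1234 and 1085 FPKM in ECsXAV and 629 and 640 FPKM in CPC, a log2 fold change of -0.87 that did not pass (limma adjusted p = 0.0629). In the Gq branch, into which ADRA1B feeds, 7 of 9 tested genes were higher in CPC and 2 lower, beside the 49.2% higher among all genes tested. The 7 include PLCB2 and PRKCE, at log2 fold changes of only 0.0065 and 0.025. Of the 9 tested, 0 passed on log2(FPKM + 1) in limma, and their median log2 fold change was 0.20. Whether either list differed as a set from all genes was not tested. PRKCH, a protein kinase C, had 24.9 and 26.4 FPKM in ECsXAV and 45.3 and 57 FPKM in CPC. Its log2 fold change of 0.96 (limma adjusted p = 0.0486, 0.0530 with the replicate block) lay just under 2-fold. PRKCA, another protein kinase C, was lower, at 7.46 and 7.19 FPKM in ECsXAV and 5.26 and 4.30 FPKM in CPC. It did not pass (log2 fold change -0.53, limma adjusted p = 0.129). On log2(FPKM + 0.1), PRKD1, a kinase activated by protein kinase C, passed at 1.42 (limma adjusted p = 0.0457). Of the potassium channels opened through CHRM2, KCNJ5 had 23.8 and 22.6 FPKM in ECsXAV and 27.5 and 23.2 FPKM in CPC, while its partner KCNJ3 stayed at 0.0131 to 0.0642 FPKM.

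**Figure D5:**
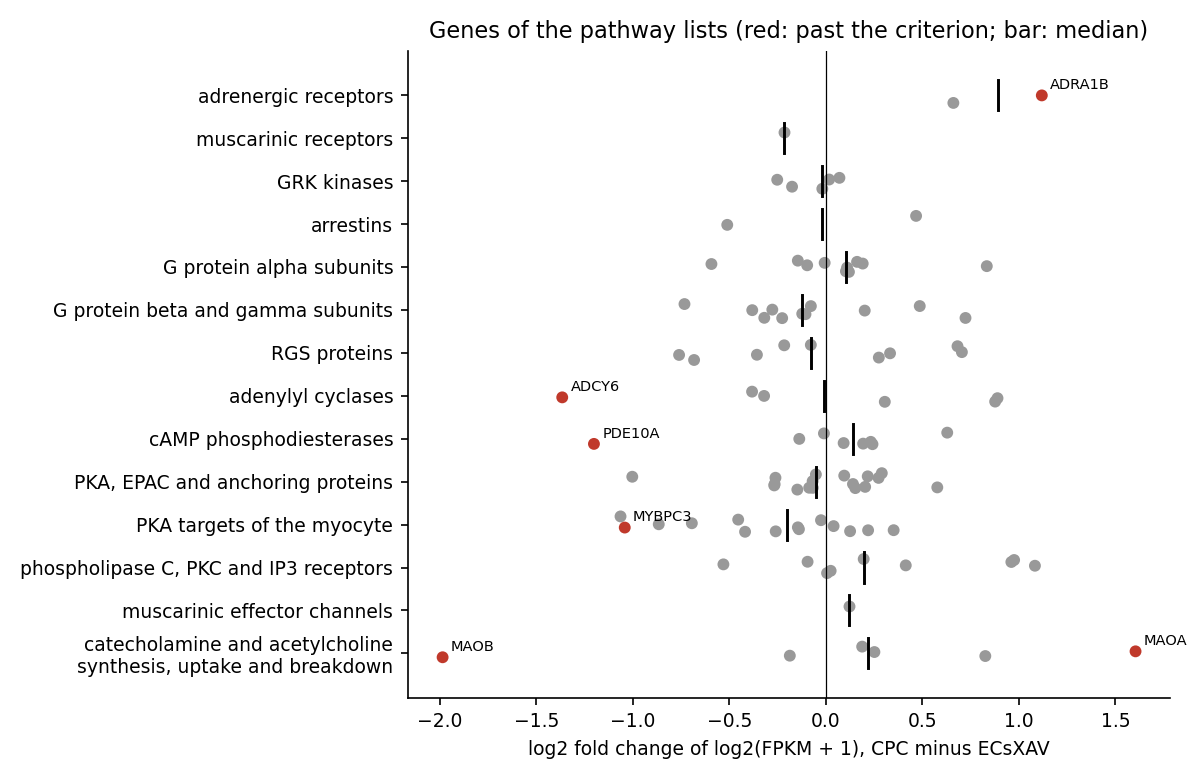
Log2 fold change of log2(FPKM + 1), CPC minus ECsXAV, for tested genes of 14 lists of the pathway, 1 point per gene, red where it passed the criterion, with a black bar at the median of each list. ADRA1B and MAOA lie to the right in red and ADCY6, PDE10A, MYBPC3 and MAOB to the left, and the medians of most lists lie close to 0.

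Of the enzymes that make and remove the ligands, the 2 monoamine oxidases, which break down catecholamines, went in opposite directions. MAOA had 0.511 and 0.932 FPKM in ECsXAV and 5.2 and 3.36 FPKM in CPC, and MAOB had 6.08 and 5.16 FPKM in ECsXAV and 0.674 and 0.663 FPKM in CPC. Neither gene overlapped between the groups, and the log2 fold changes were 1.60 for MAOA (limma adjusted p = 0.0455, 0.0833 with the replicate block and 0.0602 with quantile normalization) and -1.99 for MAOB (limma adjusted p = 0.0113). Without the low-level filter the limma adjusted p was 0.0986 for MAOA and 0.0570 for MAOB. ACHE, which breaks down acetylcholine, had 4.19 and 5.0 FPKM in ECsXAV and 8.84 and 8.94 FPKM in CPC. Its log2 fold change of 0.83 was under the 2-fold limit (limma adjusted p = 0.0492, 0.0667 with the replicate block). PNMT, which makes adrenaline from noradrenaline, had 5.38 and 6.64 FPKM in ECsXAV and 7.34 and 7.29 FPKM in CPC (log2 fold change 0.25, limma adjusted p = 0.417).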

How the data were processed

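RNA-seq FPKM of 4 libraries were analyzed as deposited. The authors made these FPKM values in Cufflinks 2.1.1 from UCSC annotations of hg19. The submitters' processing notes name TopHat 1.3.3, whereas the study's methods name Gsnap, and which alignment the FPKM rest on is not given in the sources used here. Whole counts were not used here, hence the authors' count test was not repeated and total depth is unknown. Groups came from the sample labels. Differences were tested with limma 3.58.1 in R 4.3.3 with an intensity trend and Benjamini-Hochberg adjustment over all genes tested, on log2(FPKM + 1) at a mean of at least 1 FPKM and on log2(FPKM + 0.1) at a mean of at least 0.1 FPKM. The test was checked on simulated data. A change in log2(FPKM + added value) understates that of a low gene.

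The members and lists were chosen with earlier results of these data known. Named genes are all members, other genes of their families, and from each other list those past the criterion and the 3 highest, with the 5 genes most like ADRA1B. PRKD1, PLCB2 and PRKCE were named after their values were seen. Some genes of the lists are not reported here. Values of low genes of a single transcript were matched to the smallest whole reads that fit within 0.1 read, and a multiple of these numbers would fit as well. Relative depth came from the value of 1 read, and PCR copies cannot be told from separate molecules. Coordinates came from GENCODE release 44 on GRCh37 and promoters from RefSeq on GRCh38.p14. Alternatives covered the added value, filter, scaling, trend, replicate block, transcript sums and each library left out. Genes whose exons overlap another gene on either strand are uncertain.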

Additional observations from a re-analysis of the deposited data

How the results depend on the processing

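The criterion was passed by 266 genes, by 20 without a filter on low values, by 152 with a mean of at least 5 FPKM, by 176 with the replicate block and by 50 to 118 with 1 library left out, when the lone library of a group is assumed to vary like the others. ADRA1B, the 1 member past it, was lost under each of these, so 0 members passed without a filter, at 5 FPKM (which ADRA1B does not reach), with the block and without any 1 library. Its log2 fold change was 1.02 to 1.68 over the settings run. In the pathway lists 6 genes passed, and the count was 10 with 0.01 added, 0 without a filter, 2 at 5 FPKM and 0 to 2 with 1 library left out. The share of CHRM2 among muscarinic receptors fell by 3.76 points by transcript length.

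Whether the replicate numbers mark paired cultures is not known, since no label ties them, and the groups were treated as unpaired. Same-numbered libraries deviated together with a rank correlation of 0.356 across genes (Pearson's r 0.0349). Without short RNA genes the rank correlation was 0.376 and Pearson's r 0.186. The block gave 176 genes. Among the named genes that met the criterion, it left ADRA1B, MAOA and PDE10A at an adjusted p over 0.05. Without short RNA genes as well, the block gave 346 genes and ADRA1B passed.

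Signs turned only in genes that did not pass. With a library left out, log2 fold changes spanned -0.59 to 0.16 for CHRM2, -0.41 to 0.059 for GRK5, -0.14 to 0.099 for ADRBK1 (0.095 without ECsXAV replicate 2), -0.072 to 0.21 for ADRBK2, -0.12 to 0.16 for GRK6, -0.045 to 0.25 for GNAS, -0.40 to 0.15 for GNG5, -0.25 to 0.094 for GNB2 (0.054 without ECsXAV replicate 2), -0.023 to 0.63 for ADCY5, -0.054 to 0.035 for PDE8A, -0.17 to 0.040 for PRKAR1A, -0.34 to 0.78 for RRAD and -3.6e-06 to 0.24 for KCNJ5, and on log2(FPKM + 0.1) -0.17 to 0.26 for ADRB3 (-0.0072 without ECsXAV replicate 2) and -0.63 to 1.19 for KCNJ6. PDE8A also turned to 0.0054 with median-of-ratios scaling and 0.00053 with quantile normalization, and PRKAR1A to 0.0046 with quantile normalization. The cause was not tested. Depth limits ADRB1, ADRB3, ADRA1A, ADRA1D and ADRA2A, each at under 0.25 FPKM.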
